A study of Mus musculus with 12 samples.

Results

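CD8 T cells sorted from the spleen of TCF-1 cKO and WT mice before any transplant were compared by RNA-seq, and the 6 libraries labelled pre-transplant, 3 of each genotype, were taken from the 12 libraries of the study by their titles. The study asked what TCF-1 does in mature donor T cells in a mouse model of graft-versus-host disease, in which donor T cells attack an irradiated recipient. The other 6 libraries, taken 7 days after transplant into BALB/c recipients, were used for the label check and for a test of whether the genotype difference changes with the stage. TCF-1 cKO mice carry a floxed TCF-1 gene and the CD4cre transgene, which deletes in developing thymocytes that express CD4, so that CD4 and CD8 T cells both lose TCF-1 and other spleen cells do not. Both genotypes are labelled C57BL/6, the sorted cells of each library came from a different mouse, and donors were female and age-matched with no age given. The WT libraries carry no label for CD4cre, so an effect of the transgene and of the deletion cannot be told apart here. Nothing beyond the count of mice describes the replicates, and p-values measure the spread between these libraries.

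TCF-1, the product of Tcf7, is a DNA-binding factor of the TCF/LEF family that works with beta-catenin and with Tle corepressors. It is known for its part in T cell commitment in the thymus and for holding mature CD8 T cells in naive and memory states, at the expense of effector genes such as those of granzymes. The T cell receptor it acts beside is read out through the CD3 chains, the coreceptors CD4 and CD8, and a signaling chain that runs from the kinases Lck and Zap70 through the adaptor Lat to the phospholipase Plcg1.

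The libraries went against their CD8 T cell label in both genotypes. Counts are given as normalized CPM, the gene's count scaled to the size of its library after TMM normalization over the 6 libraries, unless another scale is named. Cd79a, a signaling chain of the B cell receptor, was at 1049.7, 1004 and 1601 normalized CPM in TCF-1 cKO and 2116, 1566 and 2050.2 in WT, against 0.677 to 12.2 in the 6 post-transplant libraries. Cd8a, the CD8 alpha chain, was at only 48.8, 55.9 and 47.7 in TCF-1 cKO and 229, 134 and 229 in WT, against 274 to 619 post-transplant. Cd4 was at 42.1 to 164 before and 0.959 to 3.74 after transplant. All 20 genes of a B cell list were counted in each group, and their sum was 20856, 15478 and 27467 normalized CPM in TCF-1 cKO and 36392, 26421 and 37556 in WT. The erythroid list, of which 14 of 15 genes were found, summed to 15498, 4272 and 27082 normalized CPM in TCF-1 cKO and 5262, 17919 and 16602 in WT, and the 20 macrophage and monocyte genes to 3047, 2864 and 3816 normalized CPM in TCF-1 cKO and 5343, 3312 and 7304 in WT. No defining marker of these 3 lists was at 0. The pre-transplant libraries thus hold transcripts of B, erythroid and myeloid cells beside those of T cells, and in such samples fewer cells of a type and less RNA per cell cannot be told apart.

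Depth, the retained-intron share and the number of genes found at equal depth also moved with the genotype. The TCF-1 cKO libraries held 4520270 to 9577080 counts and the WT libraries 18979000 to 28884500, so that 3 counts stand for 0.313 to 0.664 and 0.104 to 0.158 CPM of the library total. Transcripts annotated as retained introns took 11.4%, 12.7% and 9.04% of counts in TCF-1 cKO and 6.52%, 8.38% and 6.17% in WT. Thinned to 4499032 counts each, the TCF-1 cKO libraries had 21507, 22667 and 19296 genes with 3 counts or more and the WT libraries 16164, 18905 and 15532. One library of each genotype stood apart, TCF-1 cKO replicate 3 and WT replicate 2, whose mean fragment was 193 and 185 bases long against 257 to 312 bases in the other 4. Mitochondrially encoded transcripts took 0.567% and 0.648% of their counts against 2.33% to 3.25% in the others. Spearman's rho of the log2 levels between these 2 libraries, taken over the 18757 genes tested and so a description only, was 0.898, higher than the 0.822 and 0.832 between TCF-1 cKO replicate 3 and the other TCF-1 cKO libraries. With each library thinned to the same depth 1 gene passed the test described below, and values within the fragment classes are given below. The part of these library differences in the results was not tested.

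**Figure D1:**
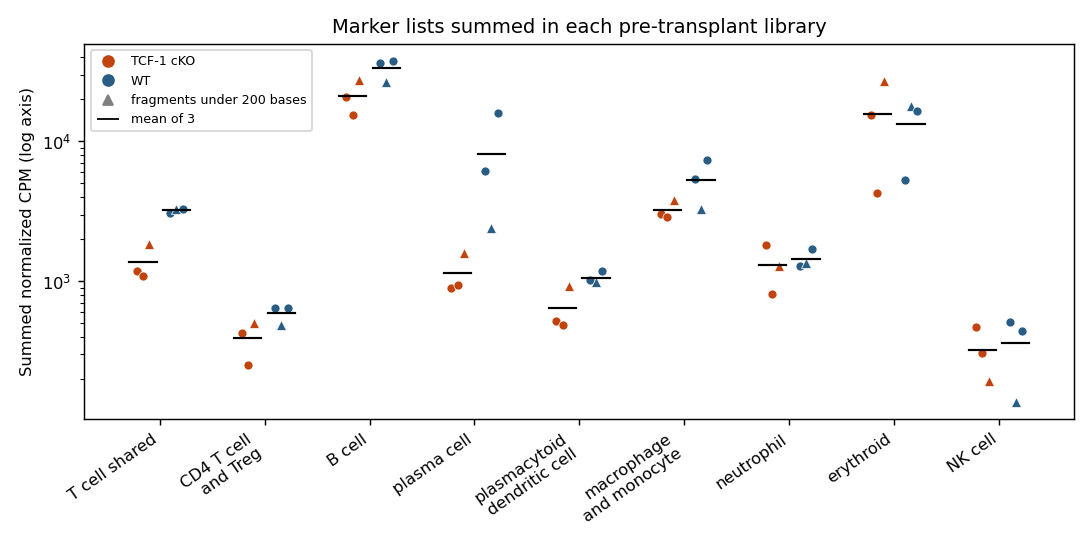
Summed normalized CPM of 9 marker lists (log axis) in each pre-transplant library, with TCF-1 cKO in red and WT in blue, triangles for the 2 libraries with fragments under 200 bases and a bar for the mean of 3. The shared T cell, plasma cell and plasmacytoid dendritic cell lists separate the genotypes, while the CD4 T cell, B cell, erythroid, macrophage, neutrophil and NK cell lists overlap.

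The targeted gene was still counted in the libraries labelled TCF-1 cKO. Tcf7 (ENSMUSG00000000782, chr11:52252371-52283014 in GRCm38) was at 48.3, 66.6 and 97.1 normalized CPM in TCF-1 cKO and 175, 117 and 251 in WT, or 70.7 ± 24.7 and 181 ± 67.5 (mean ± SD, n = 3). The highest TCF-1 cKO library lay below the lowest WT library, and the log2 fold change was -1.35 ± 0.46 (SE) with an adjusted p of 0.223 (quasi-likelihood test of edgeR, adjusted by Benjamini-Hochberg). Transcript Tcf7-201 took 99.0% to 100% of the Tcf7 counts in TCF-1 cKO and 90.3% to 99.8% in WT, and the part of the gene that was deleted is not given in the sources used here, so the sum of the gene checks the deletion little. Set against Cd3e and Cd8a of the same library, the Tcf7 level on the log2 scale was -0.22, 0.38 and 0.44 in TCF-1 cKO and -0.44, -0.54 and 0.04 in WT. There the groups overlap and the TCF-1 cKO mean is the higher one. Tcf7 was thus low in TCF-1 cKO by TMM without passing the test, and was not the lower one against Cd3e and Cd8a. Scaled to Cd3d, Cd3g and Cd8b1 its log2 fold change was -0.11 ± 0.42, and scaled to all shared T cell genes -0.20 ± 0.46, neither of which passed, so the directions below are those of the libraries labelled TCF-1 cKO.

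Few single genes passed the test. Of 18757 genes, 7 passed an FDR of 0.1, or 0.0373% of those tested, with 4 lower and 3 higher in TCF-1 cKO. Without overlap between the groups, 2033 genes lay lower (10.8%) and 3425 higher (18.3%), and 3322 genes had an unadjusted p under 0.05. Ighg2b (chr12:113302965-113307933), the constant region of an immunoglobulin G class made by plasma cells and switched B cells, fell. It was at 8.24, 15.2 and 30.4 normalized CPM in TCF-1 cKO and 1261, 357 and 706 in WT, with a log2 fold change of -5.42 ± 0.68 and an adjusted p of 0.0365. Ctse (chr1:131638306-131675505), the protease cathepsin E, fell from 493, 377 and 657 in WT to 69.6, 39.2 and 83.1 in TCF-1 cKO, with a log2 fold change of -2.99 ± 0.47 and an adjusted p of 0.0882. Apba3 (chr10:81266960-81273246) fell to 7.11, 5.44 and 3.15 from 48.99, 58.3 and 70.5 in WT. Ccdc78 (chr17:25786580-25790513) rose to 40.2, 44.1 and 13.01 from 0.478, 1.51 and 0.541. None of these 4 genes is a T cell marker.

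The other 3 genes that passed are annotated as pseudogenes, whose reads can be shared with a near-identical copy, and their counts are uncertain. All pseudogenes together took 4.66%, 5.97% and 2.92% of counts in TCF-1 cKO and 2.41%, 2.72% and 1.68% in WT. Gm28438 (chr1:24612775-24613119) was at 58.6, 68.9 and 7.03 in TCF-1 cKO and at 0 in each WT library. Against a floor of 3 counts per WT library its mean was at least 314-fold higher. Gm9025 (chr13:111882393-111884177) was at 23.96, 19.2 and 23.8 in WT and at most 2 counts were found in a TCF-1 cKO library. Rps3a2 (chr14:88123017-88123808), a processed copy of the ribosomal protein gene Rps3a1, was at 231, 269 and 203 in TCF-1 cKO and 0.399, 9.53 and 3.83 in WT, while Rps3a1 itself was at 356, 402 and 246 in TCF-1 cKO and 1343, 624 and 1465 in WT. Summed, the pair was at 587, 671 and 448 in TCF-1 cKO and 1343, 633 and 1469 in WT, and the groups overlap through TCF-1 cKO replicate 2 and WT replicate 2.

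Genes that T cells share lay low together in TCF-1 cKO. Of 14 genes of the shared T cell list, 10 were lower in TCF-1 cKO without overlap and none was higher, against 10.8% and 18.3% of all genes. None passed the FDR, and the median log2 fold change of the list was -1.45 against 0.05 over all genes tested. The summed list was 1183, 1085 and 1841 normalized CPM in TCF-1 cKO and 3088, 3272 and 3292 in WT. Every TCF-1 cKO library lay below every WT library. Cd3e (chr9:44998740-45009627), a signaling chain of the T cell receptor complex, was at 65.4, 46.3 and 107 in TCF-1 cKO and 244, 217 and 259.8 in WT, with a log2 fold change of -1.72 ± 0.44 and an adjusted p of 0.199. Trac, the constant region of the receptor's alpha chain, was at 77.2, 57.98 and 79.9 in TCF-1 cKO and 194, 210.4 and 277 in WT, with a log2 fold change of -1.66 ± 0.41 and an adjusted p of 0.199. Cd5, a receptor that restrains signaling, was at 17.8, 23.5 and 59.8 in TCF-1 cKO and 141, 141 and 154 in WT with a log2 fold change of -2.11 ± 0.52. The 4 genes whose groups overlap were Sit1, Ubash3a, Thy1 and Trat1, with log2 fold changes of -1.45, -0.37, 0.34 and 0.63.

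Both chains of the CD8 coreceptor followed. Cd8a (chr6:71373427-71379173) had a log2 fold change of -1.96 ± 0.43 and an adjusted p of 0.179, with the values given above. Cd8b1 was at 195, 200.03 and 239.9 normalized CPM in TCF-1 cKO and 377, 401 and 456 in WT, with a log2 fold change of -0.96 ± 0.39 and an adjusted p of 0.248. The groups did not overlap for either chain. Cd4, which CD8 T cells do not express, was at 42.1, 45.4 and 75.2 in TCF-1 cKO and 164, 134 and 129.7 in WT, with a log2 fold change of -1.39 ± 0.43 and an adjusted p of 0.209. It too lay lower in TCF-1 cKO without overlap, on the same side as both CD8 chains.

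**Figure D2:**
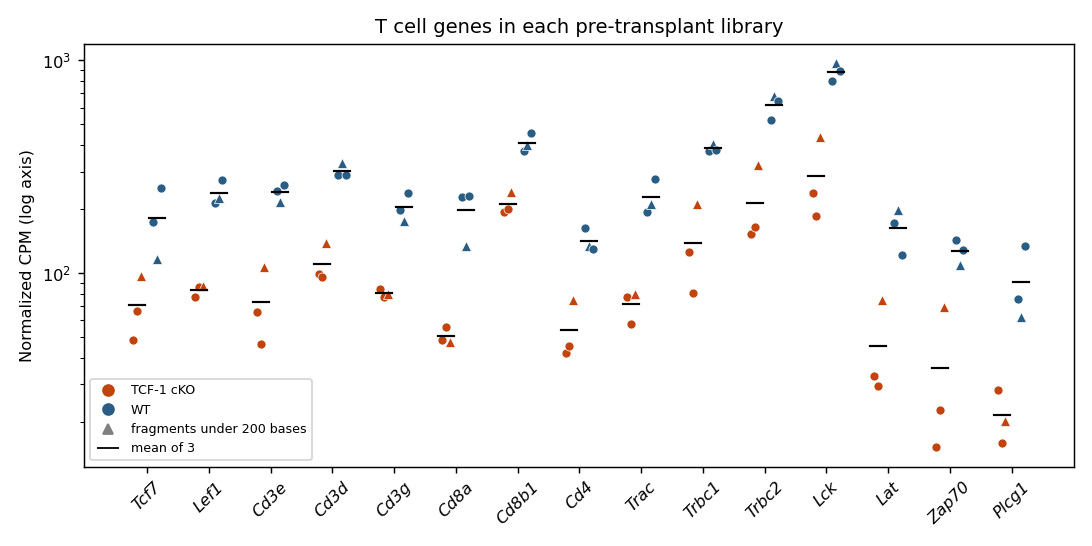
Normalized CPM (log axis) of 15 T cell genes in each pre-transplant library, with TCF-1 cKO in red, WT in blue, triangles for fragments under 200 bases and a bar for the mean of 3. For each gene drawn the 3 TCF-1 cKO libraries lie below the 3 WT libraries.

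The bases before the start of 3 of these genes are shown because the genes lay low together and serve as the reference or as part of its check below. They are the 250 bases before the RefSeq start in GRCm38.p6, in the direction of the gene, with matches to CTTTGA, the core of the TCF/LEF motif, on either strand in capitals.
Cd3e, chr9:45009612-45009861, minus strand: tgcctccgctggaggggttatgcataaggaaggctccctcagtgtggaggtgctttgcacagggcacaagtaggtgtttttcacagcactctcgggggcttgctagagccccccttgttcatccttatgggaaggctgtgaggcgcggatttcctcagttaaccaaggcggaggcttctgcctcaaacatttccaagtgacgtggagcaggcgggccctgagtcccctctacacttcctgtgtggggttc
Cd3d, chr9:44981536-44981785, plus strand: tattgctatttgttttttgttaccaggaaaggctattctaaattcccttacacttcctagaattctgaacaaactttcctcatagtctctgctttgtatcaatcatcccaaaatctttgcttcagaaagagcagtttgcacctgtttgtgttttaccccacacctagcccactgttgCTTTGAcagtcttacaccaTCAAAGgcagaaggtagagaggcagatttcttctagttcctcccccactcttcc
Cd8a, chr6:71373177-71373426, plus strand: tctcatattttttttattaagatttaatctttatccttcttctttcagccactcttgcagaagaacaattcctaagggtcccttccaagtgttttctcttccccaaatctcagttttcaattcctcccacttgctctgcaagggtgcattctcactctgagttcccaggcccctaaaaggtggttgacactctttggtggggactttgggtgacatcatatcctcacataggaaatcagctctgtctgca
Cd3d held 2 matches, which begin 73 and 54 bases before the start, and the windows of Cd3e and Cd8a held none. Of the 14 shared T cell genes, 8 had a listed start and 3 of these (Cd3d, Sit1 and Trat1) held a match, against 13.8% of 32851 windows of this length. The first counts genes with a match in any listed window and the second counts windows, so they are unlike measures. Cd3d was at 98.8, 95.5 and 139 in TCF-1 cKO and 289.95, 328 and 289.9 in WT without overlap, while the groups of Sit1 and Trat1 overlap. A match is a description of letters and no measure of binding.

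The signaling chain below the receptor lay on the same side. Of 16 genes of receptor-proximal signaling, 9 (56.25%) were lower without overlap and none higher, against 10.8% and 18.3% of all genes. The median log2 fold change was -1.01, beside 0.05 over all genes. In the highest of 10 level bins 27.8% of genes were lower, with a median of -0.59. Lck, the first kinase of the chain, was at 237, 186 and 439 normalized CPM in TCF-1 cKO and 799, 971 and 887 in WT, with a log2 fold change of -1.62 ± 0.45 and an adjusted p of 0.199. Zap70, the kinase Lck activates, was at 15.2, 22.7 and 69.5 in TCF-1 cKO and 143, 109 and 129 in WT, with a log2 fold change of -1.82 ± 0.56 and an adjusted p of 0.209. The adaptor Lat was at 32.8, 29.5 and 74.7 in TCF-1 cKO and 171, 198 and 122 in WT, with a log2 fold change of -1.84 ± 0.49. Plcg1, the phospholipase that Lat recruits, was at 28.3, 15.9 and 20.2 in TCF-1 cKO and 75.9, 62.1 and 135 in WT, with a log2 fold change of -2.08 ± 0.49 and an adjusted p of 0.199. In all 4 genes the TCF-1 cKO libraries lay below the WT libraries, with TCF-1 cKO replicate 3 the highest of its group in Lck, Zap70 and Lat. Ptprc (CD45), a phosphatase that acts on Lck, had a log2 fold change of -0.53 ± 0.45 with an adjusted p of 0.517.

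Regulators of the naive and memory state were mostly low and effector genes were mixed. Of 19 naive and memory genes, 10 (52.6%) were lower without overlap and none higher, against 10.8% and 18.3% of all genes. Their median log2 fold change was -0.96, beside 0.05 over all genes and -0.59 in the highest of 10 level bins. In that bin 27.8% of genes were lower. Lef1, the close relative of Tcf7, was at 77.4, 86.1 and 87.1 normalized CPM in TCF-1 cKO and 214, 226 and 274 in WT, with a log2 fold change of -1.51 ± 0.39 and an adjusted p of 0.199. Dapl1, a gene of naive CD8 T cells, was at 9.04, 4.50 and 6.40 in TCF-1 cKO and 31.8, 60.9 and 44.1 in WT with a log2 fold change of -2.77 ± 0.57 and an adjusted p of 0.175. Both were lower in each TCF-1 cKO library than in any WT library.

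Of 22 genes of effector and memory activation, 3 (13.6%) were lower and 1 (4.55%) higher without overlap, against 10.8% and 18.3% of all genes. The list median was -0.34, and 0.06 when libraries were scaled by their totals. That scaling moved the median over all genes from 0.05 to 0.39. Tbx21 (T-bet), a factor of effector differentiation, was at 14.7, 19.7 and 36.3 normalized CPM in TCF-1 cKO and 137, 63.7 and 110.1 in WT, with a log2 fold change of -2.13 ± 0.51 and an adjusted p of 0.199. Eomes, its relative in memory cells, was at 27.9, 19.5 and 10.1 in TCF-1 cKO and 32.7, 15.02 and 40.9 in WT and overlapped, with a log2 fold change of -0.63 ± 0.60. Il2rb (CD122), the receptor chain for IL-2 and IL-15, was at 115, 100.02 and 174 in TCF-1 cKO and 252, 257 and 279.6 in WT, lower without overlap at -1.02 ± 0.41. Cd44 was at 89.6, 85.9 and 65.03 in TCF-1 cKO and 127, 54.1 and 138 in WT and overlapped. Tbx21 and Il2rb thus separated the genotypes and Eomes and Cd44 did not.

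Among 17 cytotoxic granule and cytokine genes tested, 1 (5.88%) was lower and 3 (17.6%) were higher without overlap, against 10.8% and 18.3% of all genes. The list median was -0.24 by TMM and 0.06 by library totals, beside 0.05 and 0.39 over all genes. The death ligand Fasl was at 16.5, 26.8 and 19.3 normalized CPM in TCF-1 cKO and 12.5, 8.19 and 10.8 in WT, with a log2 fold change of 0.99 ± 0.60 and an adjusted p of 0.374. The related ligand Tnfsf10 (TRAIL) was at 35.04, 21.02 and 20.3 in TCF-1 cKO and 10.4, 9.59 and 7.86 in WT, with a log2 fold change of 1.45 ± 0.59. Gzmk, a granzyme of memory cells, was at 12.1, 2.06 and 1.15 in TCF-1 cKO and 0.319, 0.215 and 0.442 in WT, with TCF-1 cKO replicate 1 far above the other 5 libraries. Gzmb and Prf1, the granule protease and pore protein of killer cells, were at 18.1, 16.7 and 23.7 and 87.5, 58.2 and 81.3 in TCF-1 cKO and at 29.8, 4.95 and 9.93 and 90.8, 71.8 and 111 in WT, and both overlap. Of 11 NK cell markers 0 separated the genotypes, where 29.1% of all genes did, and the part of NK cells in these values was not tested.

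Relative to T cell transcripts the picture turned over. Each library was scaled by the geometric mean of its Cd3e and Cd8a counts and the same 18757 genes were tested again. Then 11713 genes (62.4%) passed the FDR as higher in TCF-1 cKO and 24 (0.128%) as lower, with a median log2 fold change over all genes of 1.92, since every gene shares the low divisor. The 14 shared T cell genes, which include Cd3e itself, had a median of 0.32, with 4 higher (Cd2, Thy1, Ubash3a and Trat1). All 20 B cell genes rose on this scale, with a median of 1.35, as did 12 of 14 erythroid genes and 14 of 20 macrophage and monocyte genes. Scaled to Cd3d, Cd3g and Cd8b1 in place of Cd3e and Cd8a, the median over all genes was 1.31, and 5685 genes passed as higher and 38 as lower.

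On this scale no T cell signaling gene named here passed as lower. Lck had a T-scaled log2 fold change of 0.14 ± 0.38 (adjusted p = 0.751), Zap70 of -0.07 ± 0.51 (0.904), Lat of -0.11 ± 0.46 (0.829) and Plcg1 of -0.18 ± 0.49 (0.749). Each of these 4 values lies within 2 SE of 0, and a p that misses the threshold does not show equal levels. Of the 16 signaling genes 9 passed as higher, among them Ptprc, where 62.4% of all genes did. The median of the signaling list was 0.90 on this scale, below the 1.92 over all genes. Tcf7 had a T-scaled log2 fold change of 0.52 ± 0.40 (adjusted p = 0.267), Lef1 of 0.35 ± 0.38 and Tbx21 of -0.28 ± 0.47, none of which passed.

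Cd8b1 and Il2rb rose against Cd3e and Cd8a, and did not pass against the wider T cell references below. Cd8b1 set against Cd3e and Cd8a was at 1.77, 1.95 and 1.73 in TCF-1 cKO and 0.67, 1.23 and 0.90 in WT on the log2 scale. The groups do not overlap, and the T-scaled log2 fold change was 0.88 ± 0.36 (adjusted p = 0.0567). Il2rb was at 1.01, 0.96 and 1.27 in TCF-1 cKO and 0.09, 0.59 and 0.19 in WT, with a fold change of 0.79 ± 0.37 (adjusted p = 0.0868). Both stood higher in each TCF-1 cKO library, and 62.4% of all genes passed as higher by the same test. Scaled to Cd3d, Cd3g and Cd8b1 the fold changes were 0.29 ± 0.36 for Cd8b1, which is then part of the divisor, and 0.21 ± 0.37 for Il2rb (adjusted p = 0.676). Scaled to all shared T cell genes they were 0.28 ± 0.37 (adjusted p = 0.598) and 0.16 ± 0.38 (adjusted p = 0.762), and neither gene passed. On the scale of Cd3e and Cd8a, Cd8b1 also did not pass without TCF-1 cKO replicate 1 or 2 or WT replicate 1 or 3, with adjusted p of 0.106 to 0.204, nor did Il2rb, with 0.126 to 0.250.

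Killer cell genes had higher values on this scale. Fasl relative to Cd3e and Cd8a was at -1.72, -0.90 and -1.84 in TCF-1 cKO and -4.13, -4.22 and -4.38 in WT on the log2 scale, with a T-scaled log2 fold change of 2.90 ± 0.65 (adjusted p = 0.00821). Gzmb was at -1.59, -1.55 and -1.55 in TCF-1 cKO and -2.95, -4.85 and -4.49 in WT, with a fold change of 2.32 ± 0.73 (adjusted p = 0.0250). Eomes was at -0.99, -1.34 and -2.71 in TCF-1 cKO and -2.82, -3.42 and -2.55 in WT, with a fold change of 1.36 ± 0.64 (adjusted p = 0.0898) and groups that overlap, and did not pass without TCF-1 cKO replicate 1 or 2 or any 1 WT library, with adjusted p of 0.132 to 0.286. The median over the cytotoxic list was 1.60, below the 1.92 of all genes, and the median over the NK cell markers was 1.85. Gzmb lay within 1 SE of the median over all genes and Fasl within 2 SE, and no test of a difference from that median was run. Scaled to all shared T cell genes, Fasl stood at 2.27 ± 0.70 (adjusted p = 0.0449) and still passed, while Gzmb at 1.57 ± 0.77 (adjusted p = 0.161) and Eomes at 0.71 ± 0.71 (adjusted p = 0.466) did not. On that scale 5099 of 18757 genes passed as higher, and the median over all genes was 1.33, within 2 SE of the Fasl value.

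**Figure D3:**
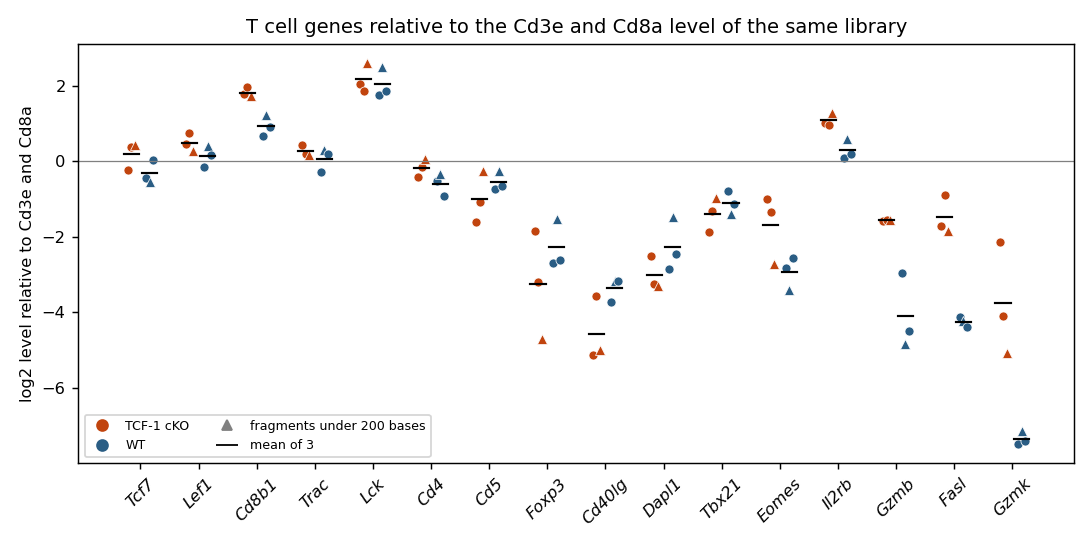
Level of 16 T cell genes relative to Cd3e and Cd8a in the same library, as the log2 of normalized CPM + 1 minus the mean log2 of both reference genes, with TCF-1 cKO in red, WT in blue, triangles for fragments under 200 bases and a bar for the mean of 3. Tcf7, Trac, Lck and Tbx21 overlap between the genotypes, and Cd8b1, Il2rb, Gzmb, Fasl and Gzmk stand higher in TCF-1 cKO. Of all genes tested 63.1% were higher without overlap after scaling to Cd3e and Cd8a.

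The few genes that fell even against T cell transcripts were mostly not T cell genes. Ighg2b fell with a T-scaled log2 fold change of -3.56 ± 0.53 (adjusted p = 0.00473) and Ctse with -1.14 ± 0.38 (0.0303). Siglech, a receptor of plasmacytoid dendritic cells, fell with -1.45 ± 0.65 (0.0781). Its list went the other way on this scale. Of the 10 plasmacytoid genes 1 passed as lower and 6 as higher, with a median of 1.15 beside 1.92 over all genes. Immunoglobulin variable segments were among the genes that fell. Ighv1-78 was at 0.161, 2.81 and 0.420 in TCF-1 cKO and 139, 7.05 and 111 in WT. Its groups overlap on the T cell scale. Trav11, a variable segment of the T cell receptor alpha chain, was at 2.39, 6.62 and 3.54 in WT and 0 in each TCF-1 cKO library, so that no fold change is given. Of T cell genes outside the receptor segments, Cd40lg (CD40 ligand of helper cells), Dapl1 and Foxp3 (the factor of regulatory T cells) had the lowest T-scaled values at -1.61 ± 1.03, -0.99 ± 0.70 and -0.79 ± 0.84, and none passed.

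Against other cells of the spleen, T cell transcripts were low in relation to B cells and to myeloid cells. Cd3e and Cd8a stood at 0.0514, 0.0518 and 0.0380 of the level of Cd79a and Cd79b in TCF-1 cKO and at 0.119, 0.0976 and 0.124 in WT, as ratios of geometric means of normalized CPM + 1. The ratio to Lyz2, Csf1r, Ctss and C1qb was 0.184, 0.194 and 0.195 in TCF-1 cKO and 0.432, 0.594 and 0.307 in WT. Neither ratio overlaps between the genotypes. The ratio to the hemoglobin genes was 0.0181, 0.0605 and 0.0138 in TCF-1 cKO and 0.222, 0.0502 and 0.0712 in WT, and overlaps through TCF-1 cKO replicate 2. For Cd3e the difference of log2 ratios between TCF-1 cKO and WT was -1.22 against the B cell genes and -1.11 against the myeloid genes, each with p = 0.1 in a two-sided exact permutation test, the smallest that 3 against 3 libraries allow. For Tcf7 the same differences were -0.77 (exact permutation p = 0.2) and -0.65 (exact permutation p = 0.1). The genotype and the level of T cell transcripts move together here, and an effect of the genotype on T cells and a difference in the cells that were sorted cannot be told apart.

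Transcripts of some rarer spleen cells differed as well. The plasma cell list had the lowest median of all lists, -1.88 over 11 genes tested, with Ighg2b past the FDR. Of its genes 4 (36.4%) were lower without overlap and none higher, against 10.8% and 18.3% of all genes. Its sum was 901, 943 and 1580.5 normalized CPM in TCF-1 cKO and 6112, 2403 and 15981 in WT. Igha, the constant region of immunoglobulin A, was at 145, 31.1 and 742 in TCF-1 cKO and 2455, 1186 and 10753 in WT, with a log2 fold change of -3.97 ± 1.07 and an adjusted p of 0.199. Each TCF-1 cKO sum lies below each WT sum, and the WT sums span more than the gap between the groups. Siglech was at 3.88, 15.4 and 7.03 in TCF-1 cKO and 70.1, 96.4 and 98.6 in WT, with a log2 fold change of -3.34 ± 0.58 and an adjusted p of 0.148. Of the 10 genes of its plasmacytoid list 3 (30%) lay lower without overlap and none higher. Foxp3 was at 14.9, 4.69 and 1.78 in TCF-1 cKO and 35.8, 58.5 and 39.1 in WT, lower without overlap at -2.65 ± 0.73, and Cd40lg at 0.646, 3.38 and 1.26 in TCF-1 cKO and 16.9, 18.2 and 26.1 in WT, also without overlap. Mpo, a granule enzyme of immature neutrophils, was at 6.46, 6.94 and 4.72 in TCF-1 cKO and 30.9, 75.98 and 35.6 in WT and S100a8 of mature neutrophils at 395, 222 and 136 in TCF-1 cKO and 290.3, 153 and 368 in WT, so that only the first separated the groups. Of 12 conventional dendritic cell genes 11 had a log2 fold change below 0, with a median of -0.45. Without overlap 2 (16.7%) were lower and 1 (8.33%) higher, beside 10.8% and 18.3% of all genes. The higher one was Xcr1, a receptor of cross-presenting dendritic cells, at 26.97, 25.5 and 15.7 in TCF-1 cKO and 10.3, 5.22 and 3.29 in WT.

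Broad gene groups lay a little low in TCF-1 cKO by TMM, where scaling by library totals moves the median of all genes from 0.05 to 0.39. Of 83 ribosomal protein genes tested, 30 (36.1%) were lower without overlap and none higher, with a median log2 fold change of -0.67, where 10.8% of all genes and 27.8% of those in the highest of 10 level bins were lower, that bin with a median of -0.59. The 79 nuclear respiratory chain genes had a median of -0.59, with 21 (26.6%) lower and 1 higher, near the share and median of that bin, and the 15 glycolysis genes of -0.76, with 6 lower. Of 24 immediate early and dissociation stress genes, 9 were lower and none higher, with a median of -0.89. Jun, a subunit of the AP-1 factor, was at 27.9, 26.5 and 97.1 in TCF-1 cKO and 150.1, 179 and 148 in WT. The 30 interferon-stimulated genes had a median of -0.20 (0.15 by totals) with 4 (13.3%) lower, the 20 proliferation genes of -0.33 (0.01 by totals) with 1 (5%) lower and 2 (10%) higher, and the 13 inhibitory receptor genes of -0.50 with 2 (15.4%) lower and 1 (7.69%) higher, beside 10.8% and 18.3% of all genes. Pdcd1 (PD-1) was at 9.53, 2.06 and 6.50 in TCF-1 cKO and 22.04, 22.3 and 21.8 in WT, lower without overlap at -1.87 ± 0.71, and Tox at 24.9, 16.1 and 19.9 in TCF-1 cKO and 15.9, 30.3 and 27.5 in WT with overlap. Of 17 JAK/STAT and cytokine receptor genes 8 (47.1%) were lower and none higher, with a median of -0.93. Of 17 NF-kB and TNF genes 8 (47.1%) were lower, with -0.79. Socs3, a feedback inhibitor of cytokine signaling, was at 18.7, 11.8 and 17.9 in TCF-1 cKO and 47.6, 96.98 and 78.7 in WT with a log2 fold change of -2.20 ± 0.49 and an adjusted p of 0.180. None of these genes passed the FDR.

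**Figure D4:**
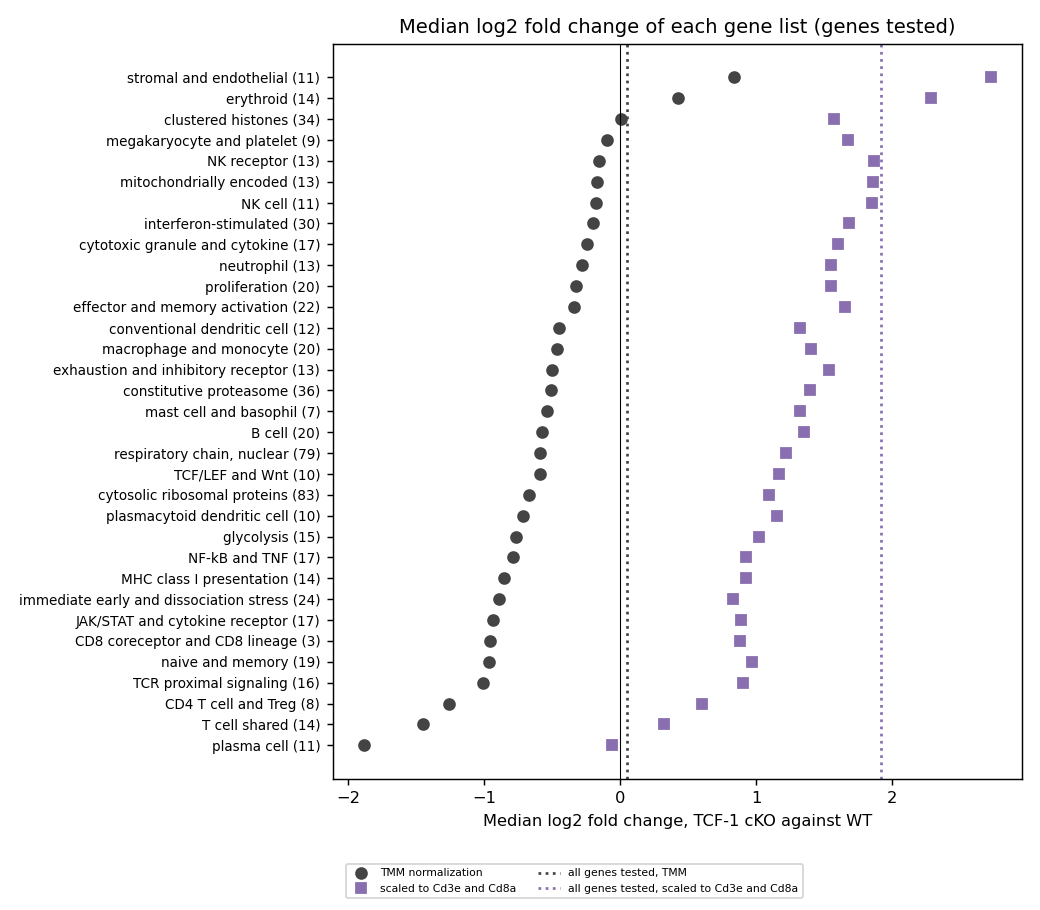
Median log2 fold change, TCF-1 cKO against WT, of each gene list (number of genes tested in brackets), by TMM (circles) and with libraries scaled to Cd3e and Cd8a (squares), with dotted lines for all genes tested at 0.05 and 1.92. The plasma cell and shared T cell lists lie lowest on both scales (by library totals their medians were -1.59 and -1.16), and the stromal and erythroid lists highest.

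The fold changes followed the GC content and the level of a gene. Spearman's rho across genes between the log2 fold change and GC content was -0.26, with length 0.19 and with the mean level -0.48. With the genes in 10 bins of equal size, from the bin of lowest GC content to that of the highest, the median log2 fold change went from 1.36 to -0.44. By level it went from 1.31 in the lowest bin to -0.59 in the highest, and was -0.51 in the bin next to it. Of the 14 shared T cell genes 12 lie in these upper 2 bins of level, so the -1.45 of the shared T cell list stands beside -0.59 and -0.51 there. With each library's GC content and length trend removed, the median over all genes was -0.50 and that of the shared T cell list -1.79, Cd3e stood at -2.01 and Tcf7 at -1.83, and 17 genes passed the FDR, with 14 lower and 3 higher.

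The 4 longer-fragment libraries held both the GC content trend and the T cell difference. The short-fragment pair held the T cell difference with little of the trend. Between the 2 libraries of short fragments the median log2 ratio stayed between -0.04 and 0.06 in every bin of GC content, while between the other 4 libraries the median went from 1.78 to -1.01. The shared T cell list had a median of -0.86 between the short-fragment libraries, where that over all genes was 0.00, and of -1.96 between the other 4, where all genes stood at -0.07. Cd3e was -1.01 and -2.30, Cd8a -1.47 and -2.26, and Lck -1.14 and -2.12 in these 2 comparisons, as log2 values. Tcf7 was -0.26 and -2.02. The B cell list stood at 0.03 in the short-fragment pair and -1.05 in the other 4. T cell genes were thus low in TCF-1 cKO in both classes. The short-fragment pair is 1 library against 1 and has no replicate check. Without these 2 libraries 6681 of 19953 genes tested passed the FDR, 3370 lower and 3311 higher. Among them were 12 of the 14 shared T cell genes. Between the 4 longer-fragment libraries the median over the highest of 10 level bins was -1.06. The shared T cell list at -1.96 lay below it, and the B cell list at -1.05 was near it.

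**Figure D5:**
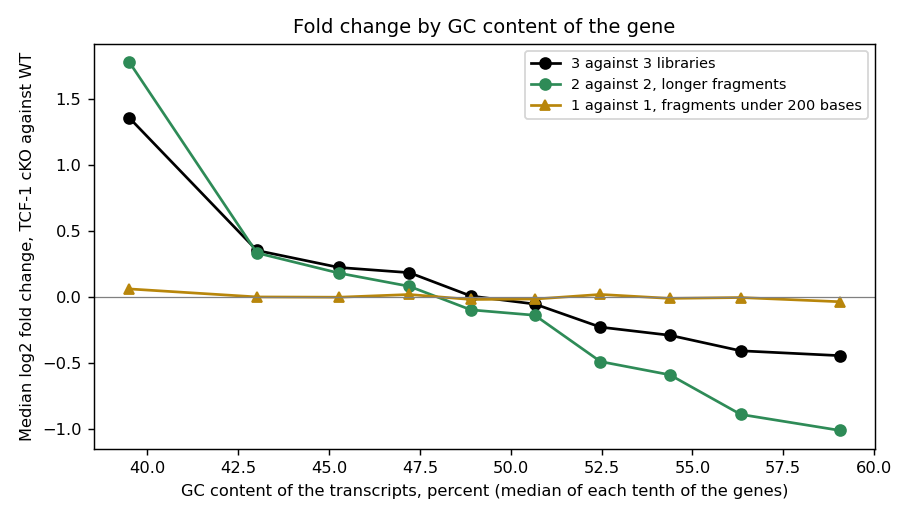
Median log2 fold change, TCF-1 cKO against WT, of the genes in each of 10 bins against the GC content of their transcripts in percent, for all 6 libraries (black), the 4 with longer fragments (green) and the 2 with fragments under 200 bases (ochre). The first 2 lines fall from 1.36 to -0.44 and from 1.78 to -1.01, and the third stays within -0.04 and 0.06.

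Whether the genotype difference changes after transplant was tested over all 12 libraries as an interaction. Of 21526 genes 1 passed the FDR, or 0.00465%, with 3377 at an unadjusted p under 0.05, and that gene was the pseudogene Gm28438. The library of TCF-1 cKO post-transplant replicate 2 has a title that names CD8 T cells and a source label that names CD4 T cells, and was grouped by its title. Without it Gm28438 did not pass (adjusted p = 0.133). The difference between the stages in log2 fold change was -0.95 ± 0.72 (SE) for Tcf7 (adjusted p = 0.53), -2.08 ± 0.60 for Cd8a (adjusted p = 0.23), 0.62 ± 0.79 for Cd3e (adjusted p = 0.73) and -1.29 ± 0.62 for Trac (adjusted p = 0.33), each as pre-transplant minus post-transplant. None of these 4 genes passed, and the cell mixture differs between the stages as the B cell genes show.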

How the data were processed

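CD8 T cells from spleen were stored in Trizol, RNA was purified with miRNeasy, and SMART-Seq HT cDNA was made into Nextera XT libraries. The authors deposited 1 table of transcripts per sample, with kallisto's estimated counts and TPM. The submitters' processing notes name kallisto 0.46.2, limma and the build mm9. Transcripts were matched by unversioned identifier to GENCODE M21 (GRCm38), and 116374 of 117497 were found, from 35855 genes. Per the file headers the deposited estimated counts are per transcript, and they were summed per gene and rounded. The deposited TPM entered only the alternative of counts scaled from TPM and the levels per length kept beside the counts.

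The 3 TCF-1 cKO and 3 WT pre-transplant libraries were compared with edgeR 4.0.16 (TMM, quasi-likelihood test, Benjamini-Hochberg FDR of 0.1, edgeR's default filter on low counts) in R 4.3.3, and again with libraries scaled to Cd3e and Cd8a. The interaction with stage used all 12 libraries. limma 3.58.1 (voom) and DESeq2 1.42.0 gave alternatives, and tables were handled with pandas 2.3.3 in Python 3.11.15. The GC content and length offset removes each library's trend over genes. Ratios to marker genes used log2 of normalized CPM + 1 and two-sided exact permutation tests. The scripts were tested on simulated data. A floor of 3 counts covers counting error only.

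The gene lists and the genes compared were chosen with earlier results of these data known. Named genes were Tcf7, Cd3e, Cd8a, Cd8b1 and Cd4; 23 genes the study follows before transplant; in each list the 3 highest in level and up to 3 in each direction with the smallest p among those without overlap; up to 10 in each direction past the FDR on each scale; and up to 10 list genes in each direction with the largest change against Cd3e and Cd8a at a mean of 5 CPM or more. Cd3d, Cd3g, Cd79a, Csf1r, Sit1, Thy1, Trat1 and Ubash3a were named outside this rule, after their values were seen. Of 7 nuclear-retained long RNAs none was in the tables used here. Cd79a and Cd79b as the B cell reference were chosen after seeing the data. Some results on single genes are not reported here.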

Additional observations from a re-analysis of the deposited data

Results flagged for a closer look

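Gm28438 (chr1:24612775-24613119), an unprocessed pseudogene, differed in its genotype effect between the stages. The log2 fold change before transplant minus that after transplant was 11.69 ± 1.51 (SE), with an adjusted p of 0.0461 (quasi-likelihood test of edgeR, adjusted by Benjamini-Hochberg), and the value depends on the prior count because all 3 WT pre-transplant libraries were at 0. It was at 58.6, 68.9 and 7.03 normalized CPM in the TCF-1 cKO pre-transplant libraries, and between 23.1 and 116 in the 6 post-transplant libraries of both genotypes. Reads of such a pseudogene can be shared with a near-identical copy, and it did not pass with a replicate block (adjusted p = 0.133). Leaving out 1 library gave adjusted p of 0.00792 to 0.221, and it did not pass without 8 of the 12 libraries in turn, among them TCF-1 cKO post-transplant replicate 2, whose source label names CD4 T cells.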

How the results depend on the processing

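None of the 7 genes past the FDR before transplant changed its direction in the alternatives run, while 9 list medians near 0 did with library totals. For the comparison before transplant, against 7 genes past the FDR, limma-voom gave 2 genes, voom with sample quality weights 7566, DESeq2 1451, DESeq2's size factors 3, library totals 12 (3 lower and 9 higher), totals without immunoglobulin, hemoglobin, ribosomal and mitochondrial genes 2, no filter 619, counts scaled from TPM 3, the GC content and length offset 17, thinning to the smallest total 1, and an FDR of 0.05 gave 2. With the Cd3e and Cd8a level as covariate 0 genes passed by edgeR, with 542 at an unadjusted p under 0.05. As a geometric mean of normalized CPM + 1, that level was 57.5, 51.9 and 72.5 in TCF-1 cKO and 237, 171 and 245 in WT. The covariate thus separates the genotypes itself, and a loss of calls in this fit cannot tell it apart from the genotype. Without both short-fragment libraries, an alternative chosen after seeing the data as was the fragment-length covariate, 6681 of 19953 genes tested passed. Leaving out 1 library gave 0 to 2739 genes. The highest count came without TCF-1 cKO replicate 3, and 15 passed without WT replicate 1. Without TCF-1 cKO replicate 1, 3 genes passed, and 0 passed without TCF-1 cKO replicate 2, WT replicate 2 or WT replicate 3, with 1679, 5452 and 2060 at an unadjusted p under 0.05. The number of genes called therefore rests on single libraries and on the tool. Library totals moved the median of all genes from 0.05 to 0.39. They turned the sign of the medians of the effector, cytotoxic, NK receptor, NK cell, neutrophil, megakaryocyte, interferon-stimulated, mitochondrially encoded and proliferation lists, from slightly below 0 to slightly above it.

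Replicate numbers did not pair the samples: deviations of same-numbered libraries correlated at 0.0530, -0.0676 and 0.0181, and not every library correlated best with its own number. With a replicate block 0 genes passed by edgeR (3231 at an unadjusted p under 0.05), with the block and the GC offset 142, and 10954 on the scale of Cd3e and Cd8a. On that scale Cd3d, Cd3g and Cd8b1 as reference gave 5723 genes and all shared T cell genes 5133, against 11737, and leaving out 1 library gave 7990 to 12343. For the interaction, against 1 gene, the offset gave 2, library totals 5, DESeq2 1713 and the replicate block 0 (2915 at an unadjusted p under 0.05), and leaving out 1 library gave 0 to 2264, the highest without WT post-transplant replicate 3. Spearman's coefficient of the fold change with GC content was -0.37 to -0.14 when 1 library was left out, nearest 0 without TCF-1 cKO replicate 2. Of the values of 214 named genes under the alternatives, 2524 kept their side of the threshold or moved less than the replicates' spread, 392 moved further, 459 came to pass and 44 no longer passed. Depth limits the TCF-1 cKO libraries most, where 3 counts are 0.313 to 0.664 CPM. The causes were not tested.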
